A study of Mus musculus with 23 samples.

Results

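Genes that mark the cells of the brain's vessel walls and coverings were followed through RNA libraries of mouse brain, 9 of the 18578 genes of the table. They were taken by symbol, through their Ensembl identifiers, from a stated list: the mural cell genes Pdgfrb, Rgs5, Vtn and Acta2, and the fibroblast genes Col1a1, Col1a2, Dcn, Lum and Igf2. The study set mice heterozygous for the Grin2b allele C456Y, a change in a subunit of the NMDA-type glutamate receptor, against wild-type mice, with and without foot-shock. The groups were wild type without shock (WT control, 6 libraries), wild type with foot-shock (WT shock, 5), heterozygous without shock (HT control, 6) and heterozygous with foot-shock (HT shock, 6). All 23 libraries came from brain of male C57BL/6J mice. The labels give an age of P17, postnatal day 17, while the series text speaks of adult ages, and the sources used here state no brain region, strength of the shock or time after it. The labels number the replicates and do not say whether each is a separate animal, so every p-value refers to variation among the libraries alone, part or all of which may be technical.

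Mural cells sit on the outer face of small vessels: pericytes on capillaries, and smooth muscle cells on arterioles, where they contract. Fibroblasts of the brain lie in the meninges, in the spaces around larger vessels and in the stroma of the choroid plexus, and lay down fibrillar collagen. Endothelial cells secrete PDGF-B, which reaches the PDGF receptor beta on pericytes and keeps them on the vessel. In whole brain these cells are few beside neurons and glia, and in such bulk RNA fewer cells of a type and less RNA per cell cannot be told apart.

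The collagen genes are shown first by a stretch of their coding sequence, since both encode chains of 1 protein, type I collagen, and are built on the same repeat. Each chain is a run of Gly-X-Y triplets, and in the coding sequence every triplet opens with a glycine codon, GGN. In GENCODE M21 transcripts (GRCm38) the longest unbroken run of such triplets was 338 in Col1a1, 69.7% of its 4362 coding bases, and 339 in Col1a2, 74.1% of its 4119. Of the coding exons, 21 of 51 in Col1a1 and 24 of 52 in Col1a2 are exactly 54 bases long. One such exon of each gene follows, from chr11:94939904-94939957 (plus strand) and chr6:4515481-4515534 (plus strand), with the glycine codon that opens each triplet in capitals. The last triplet of the Col1a1 exon holds a further glycine codon, ggt, left in lower case.
Col1a1: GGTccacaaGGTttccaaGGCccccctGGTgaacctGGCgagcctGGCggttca
Col1a2: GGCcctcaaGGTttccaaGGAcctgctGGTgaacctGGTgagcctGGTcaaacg

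Acta2, the smooth muscle actin, has close relatives whose reads could be shared with it, which bears on how its values are read. Over the coding sequence it was identical to Acta1, the skeletal muscle actin, at 85.4% of bases, with 29 bases as the longest identical run. It was identical to Actb and Actg1, the actins of all cells, at 83.0% and 81.7%, with runs of 47 and 56 bases. The deposited means of those relatives, not per length, were 151 (Acta1), 23680 (Actb) and 27790 (Actg1) normalized counts, and the sources used here do not say how shared reads were divided, so the values of Acta2 are uncertain to that extent. The last 60 coding bases, stop codon included, show how far they differ, from chr19:34241667-34241726 (Acta2), chr8:123892009-123892068 (Acta1) and chr5:142903798-142903857 (Actb), all on the minus strand of GRCm38, with bases that differ from Acta2 in capitals.
Acta2: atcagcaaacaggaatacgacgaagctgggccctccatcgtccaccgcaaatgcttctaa
Acta1: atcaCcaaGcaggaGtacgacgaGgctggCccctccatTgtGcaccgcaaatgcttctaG
Actb: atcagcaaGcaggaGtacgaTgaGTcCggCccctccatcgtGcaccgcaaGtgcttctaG

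Rgs5 and Col1a2 were the mural and fibroblast genes whose levels ran most closely together across libraries (below, by their correlation), and stretches before their start sites are shown for that reason. The RefSeq table of start-site windows (GRCm38.p6) held 5 of the 9 genes. The stretches are the 120 bases before the start of Rgs5 (chr1:169655381-169655500, plus strand) and the bases from 248 to 126 before the start of Col1a2 (chr6:4505370-4505492, plus strand). They were searched on both strands for CCAAT and for GGGCGG, which do not overlap one another in letters. The Rgs5 stretch held 1 CCAAT, on the strand not printed, so that it reads as 5 capitals of its complement here, and it held 0 GGGCGG. Of the 32851 windows cut to that place, 21.3% held CCAAT and 26.5% held GGGCGG. The Col1a2 stretch held 2 GGGCGG, in capitals, against 13.3% of windows with any, and 0 CCAAT, against 16.6%. The stretches had neither motif in common, but they were cut at different distances from their starts. The rest of each upstream window was not searched, so this does not describe the upstream regions as a whole. The Col1a2 stretch lies inside the span given below for that gene, which begins before the RefSeq start used here.
Rgs5: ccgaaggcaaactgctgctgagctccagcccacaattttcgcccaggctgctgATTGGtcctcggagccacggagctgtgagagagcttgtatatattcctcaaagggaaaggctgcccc
Col1a2: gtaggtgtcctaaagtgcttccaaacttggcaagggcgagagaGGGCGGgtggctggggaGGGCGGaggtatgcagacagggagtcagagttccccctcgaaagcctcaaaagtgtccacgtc

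Values are normalized counts as deposited, whose library totals lay between 30980153 and 32569746. Sequencing depth behind them is unknown, so no counting interval was computed. Libraries correlated pairwise between 0.981 and 0.991 on the log2 scale. HT control replicate 6 stood apart: on the first principal component (12.9% of the variance) it lay at 31.3, while the other HT control libraries lay between -12.7 and 5.17 and the HT shock libraries between 11.4 and 26.0. The comparisons that use the HT control libraries are given with and without it.

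All 9 genes were measured in every library, none was at 0 in any, and all passed the filter on low values. To compare genes, each value was divided by the length of the gene's longest protein-coding transcript with a consensus coding sequence. Vtn (chr11:78499091-78502324, plus strand), which encodes vitronectin, a protein of plasma and matrix that pericytes make in brain, had the highest mean per length, 797 ± 107 normalized counts per kb (SD, n = 23). Igf2 (chr7:142650766-142666816, minus strand), an imprinted growth factor of the insulin family, followed with 405 ± 63.2 per kb. Rgs5 (chr1:169655501-169695813, plus strand), a regulator of G-protein signalling and a pericyte marker, had 343 ± 38.5 per kb. Dcn (chr10:97479609-97518143, plus strand), which encodes the proteoglycan decorin, had 280 ± 28.9 per kb.

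The other genes lay lower on the same scale. Acta2 (chr19:34241090-34255590, minus strand) had 154 ± 29.5 normalized counts per kb, and Col1a2 (chr6:4504814-4541544, plus strand), the alpha-2 chain of type I collagen, had 117 ± 18.0. Pdgfrb (chr18:61045150-61085061, plus strand), the receptor for PDGF-B, had 108 ± 12.0, and Col1a1 (chr11:94936224-94953042, plus strand), the alpha-1 chain, had 60.03 ± 9.80. Lum (chr10:97565128-97572703, plus strand), which encodes the proteoglycan lumican and is a near neighbour of Dcn, had 25.5 ± 6.37. The library ranges of neighbours in this order did not overlap between Vtn and Igf2, between Dcn and Acta2, and between Pdgfrb and Col1a1. They overlapped between Igf2 and Rgs5, Rgs5 and Dcn, Acta2 and Col1a2, Col1a2 and Pdgfrb, and Col1a1 and Lum. The order depends on the length taken: over all annotated exons, an alternative chosen after seeing the data, Dcn had 84.5 and Col1a2 50.5 per kb. Coordinates are those of GRCm38, and all 9 genes are protein coding. Igf2 overlaps the antisense gene Igf2os on the other strand, whose mean of 8.38 normalized counts is small beside the 1911 of Igf2, and the sources used here do not say whether the counting used the strand.

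Within a gene, the spread over the 23 libraries was widest for the low Lum, whose SD was 24.98% of its mean, then Acta2 (19.2%), and narrowest for Dcn (10.3%), Pdgfrb (11.1%) and Rgs5 (11.2%).

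Among the mural genes, the receptor Pdgfrb spanned similar ranges in all groups: its normalized counts had a lowest, median and highest library of 469, 552 and 637 in WT control, 539, 591 and 683 in HT control, and 519, 573 and 689 in HT shock. In WT shock they were 615, 534, 539, 663 and 622. The 4 groups overlapped throughout. Rgs5 had 1202, 1314 and 1590 in WT control, 1377, 1491 and 1565 in HT control and 1058, 1388 and 1750 in HT shock, with 1388, 1257, 1442, 1276 and 1427 in WT shock. All 6 HT control libraries lay above the WT control median while none exceeded the highest WT control library, and HT shock held both the lowest and the highest library of all. Vtn had 1114, 1197 and 1512 in WT control, 1238, 1445 and 1770 in HT control and 1209, 1421 and 1590 in HT shock, with 1460, 1049, 1250, 1601 and 1591 in WT shock. The highest Vtn value belonged to HT control replicate 6. Acta2 had 228, 266 and 327 in WT control, 273, 359 and 395 in HT control and 225, 319 and 429 in HT shock, with 367, 259, 266, 351 and 334 in WT shock. Of the HT control libraries 4 of 6 exceeded every WT control library in Acta2, and replicate 6 was the lowest of them.

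Among the fibroblast genes, Igf2 had a lowest, median and highest library of 1231, 1639 and 1863 normalized counts in WT control, 1800, 2053 and 2579 in HT control and 1762, 1913 and 2358 in HT shock. The WT shock libraries had 1977, 1675, 1793, 2378 and 2014. WT control was thus the low group for Igf2: 5 of its 6 libraries lay below every HT control library, and 4 of 6 HT control libraries lay above all of WT control, yet the groups overlapped. Lum had 40.3, 56.4 and 72.5 in WT control, 53.3, 70.8 and 102 in HT control and 42.8, 64.1 and 84.7 in HT shock, with 45.02, 45.8, 49.1, 68.6 and 62.1 in WT shock. The lowest Lum libraries of the other groups, between 40.3 and 45.02, lay below all of HT control. Col1a1 had 228, 312 and 405 in WT control, 323, 387 and 407 in HT control and 264, 359 and 443 in HT shock, with 293, 313, 433, 463 and 350 in WT shock. The lowest 4 libraries of WT control lay below all of HT control in Col1a1, while 1 HT control library exceeded the highest WT control library. Col1a2 had 394, 622 and 720 in WT control, 578, 685 and 772 in HT control and 457, 608 and 751 in HT shock, with 579, 562, 648, 744 and 682 in WT shock. Dcn had 425, 470 and 528 in WT control, 416, 510 and 588 in HT control and 452, 486 and 600 in HT shock, with 438, 432, 484, 542 and 494 in WT shock. For Dcn the groups covered nearly the same range.

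**Figure D1:**
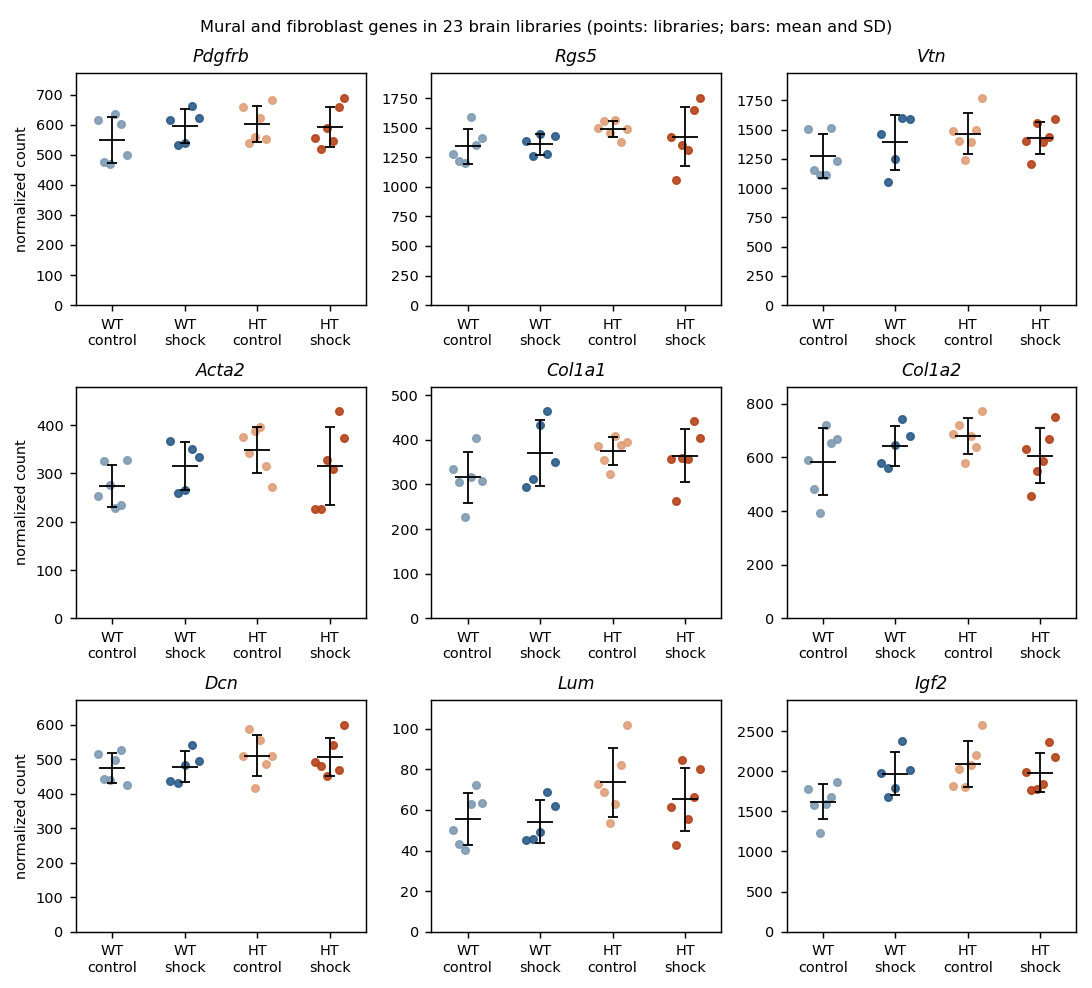
Normalized counts (vertical axes, from 0) of the 9 genes in the 4 groups (horizontal axes): points are libraries (n = 6, 5, 6 and 6 from left to right) and bars the mean and SD. In every panel the groups overlap, and the WT control mean is the lowest of the 4 for all genes but Lum, whose means were 55.4 in WT control and 54.1 in WT shock.

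The difference between genotypes in unshocked brain was taken from HT control against WT control. All 9 genes had higher means in HT control, by a median log2 difference of 0.24, and none passed the test. The test was limma on log2(normalized count + 1) with Benjamini-Hochberg adjustment over 17118 genes and a threshold of 0.05. Across all genes 0% passed as well, 49.8% had a difference above 0, and the median was -0.0007. Most of the 9 genes ran together across libraries (below), so a shared sign is not 9 separate observations, here or in later comparisons. Igf2 differed by 0.36 ± 0.10 (log2 ± SE, fold 1.29, 95% interval 0.15 to 0.57, adjusted p = 0.297), Lum by 0.41 ± 0.18 (adjusted p = 0.421), Acta2 by 0.35 ± 0.14 (adjusted p = 0.404) and Col1a1 by 0.26 ± 0.13 (adjusted p = 0.447). These 4 had an unadjusted p under 0.05 in limma, as had 11.1% of all genes. Col1a2 (0.24 ± 0.13), Vtn (0.21 ± 0.10), Rgs5 (0.16 ± 0.09), Pdgfrb (0.14 ± 0.09) and Dcn (0.10 ± 0.08) had intervals that held 0. None of the 9 had groups that did not overlap, against 0.187% of all genes lying wholly higher and 0.234% wholly lower.

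Without HT control replicate 6, the differences were 0.30 ± 0.10 for Igf2 (limma adjusted p = 0.688), 0.31 ± 0.18 for Lum (adjusted p = 0.835), 0.41 ± 0.15 for Acta2 (adjusted p = 0.751) and 0.25 ± 0.13 for Col1a1 (adjusted p = 0.822). Igf2 and Acta2 were there the 2 genes of the 9 with an unadjusted p under 0.05 in limma. All 9 remained above 0 there and in each of the other 32 alternative settings of this comparison. Without WT control replicate 3, the lowest library over the 9 genes, Col1a2 had 0.13, Col1a1 0.17 and Igf2 0.29. These were the lowest values of those genes with 1 library left out. Markers of other cells moved the same way between these groups. Choroid plexus genes had differences above 0 in 14 of 14 (median 0.39). Their sums consist mostly of Ttr and Enpp2 (means of 12409 and 9855 over the 23 libraries). Summed levels ran from 14576 to 27863 normalized counts in WT control and from 21528 to 33986 in HT control. The figures were 8 of 8 for ependyma (median 0.22, sums 676 to 746 against 755 to 921), 13 of 13 for microglia and macrophages (median 0.24, with sums over the 14 in the table of 3843 to 5533 against 4467 to 6959) and 16 of 20 for endothelium (median 0.10, 11758 to 14406 against 12212 to 14317). Precursors of oligodendrocytes had 6 of 8 above 0 (median 0.09) and blood 6 of 7 (median 0.10). Neurons had 4 of 10 above 0 (median -0.03), astrocytes 3 of 11 (median -0.02) and oligodendrocytes 2 of 10 (median -0.11). No marker of these lists in the table was at 0 in any library and none passed the test. Their part in the difference of the 9 genes was not tested.

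The response of wild-type brain to foot-shock was taken from WT shock against WT control, which shares the WT control libraries with the comparison above. None of the 9 genes passed (limma, smallest adjusted p = 0.998), as did 0% of all genes. Differences were above 0 for 8 of the 9, with a median of 0.12, against 49.8% of all genes. Igf2 was higher in mean by 0.28 ± 0.11 (log2 ± SE, fold 1.22, 95% interval 0.06 to 0.50) and was the 1 gene of the 9 with an unadjusted p under 0.05, a mark that 3.72% of all genes reached. All 5 WT shock libraries lay above the WT control median of Igf2, and 3 lay above its highest WT control library. Col1a1 (0.23 ± 0.13), Acta2 (0.20 ± 0.15), Col1a2 (0.16 ± 0.13), Vtn (0.12 ± 0.11) and Pdgfrb (0.12 ± 0.09) followed, while Rgs5 (0.02 ± 0.09), Dcn (0.01 ± 0.09) and Lum (-0.02 ± 0.19) lay near 0. No gene of the 9 separated the groups, against 0.164% of all genes wholly higher and 0.21% wholly lower. Endothelial markers were above 0 in 20 of 20 (median 0.16) and choroid plexus markers in 14 of 14 (median 0.27). Precursors of oligodendrocytes had 8 of 8 above 0 (median 0.16), microglia and macrophages 12 of 13 (0.13), oligodendrocytes 9 of 10 (0.12), astrocytes 9 of 11 (0.05), ependyma 7 of 8 (0.14), blood 6 of 7 (0.25) and neurons 3 of 10 (-0.02). None of these markers passed, and their part in the differences of the 9 genes was not tested.

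In heterozygous brain, the response was taken from HT shock against HT control. All 9 differences were below 0, between -0.18 (Lum) and -0.01 (Dcn), with a median of -0.07, against 51% of all genes above 0. None passed (limma, smallest adjusted p = 0.534, for Col1a2 at -0.17 ± 0.13), none had an unadjusted p under 0.05, and 0% of all genes passed, with 13.7% at an unadjusted p under 0.05. Acta2 had -0.17 ± 0.14, Rgs5 -0.08 ± 0.09 and Igf2 -0.07 ± 0.10. The ranges overlapped for all 9, against 0.181% of all genes wholly higher and 0.105% wholly lower. Up to 5 of the 9 were above 0 under single alternative settings, so the shared sign here rests on the choice of libraries and settings.

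Without HT control replicate 6, Pdgfrb (0.01 ± 0.09) and Vtn (0.03 ± 0.10) lay above 0, Lum had -0.08 ± 0.18, Igf2 -0.01 ± 0.10, Acta2 -0.24 ± 0.15 and Col1a2 -0.14 ± 0.13. Still none of the 9 passed (limma, smallest adjusted p = 0.300), while the number of all genes passing went from 0 to 2064, and library weights gave 2792. With all libraries, markers above 0 were 0 of 10 for oligodendrocytes (median -0.07), 1 of 11 for astrocytes (-0.06), 2 of 13 for microglia and macrophages (-0.11), 4 of 20 for endothelium (-0.07), 4 of 14 for choroid plexus (-0.12), 1 of 7 for blood (-0.08) and 3 of 8 for precursors of oligodendrocytes (-0.03). Neurons had 8 of 10 above 0 (0.05) and ependyma 7 of 8 (0.06). None of these markers passed, and their part in the differences of the 9 genes was not tested.

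Whether shock acted differently in the genotypes was tested directly, as the shock difference in HT minus that in WT. None of the 9 passed (limma, smallest adjusted p = 0.758) and 0% of all genes did. All 9 values were below 0, with a median of -0.16, against 49.8% of all genes above 0. Acta2 had -0.37 ± 0.21, Igf2 -0.35 ± 0.15 (95% interval -0.66 to -0.05), Col1a2 -0.33 ± 0.18 and Col1a1 -0.28 ± 0.18. Igf2 alone of the 9 had an unadjusted p under 0.05 (limma adjusted p = 0.758), a mark reached by 6.43% of all genes. Without HT control replicate 6, Igf2 had -0.29 ± 0.14 (limma, unadjusted p = 0.0541, adjusted p = 0.357) and Acta2 -0.44 ± 0.21 (unadjusted p = 0.0432, adjusted p = 0.330), so that Acta2 took the place of Igf2 under that mark. Lum had -0.06 ± 0.25 and Vtn -0.10 ± 0.15 there, against -0.16 and -0.15 with all libraries, and 1 of all genes passed. Values below 0 were also shared by markers of other cells: above 0 were 0 of 20 for endothelium (median -0.30), 1 of 14 for choroid plexus (-0.33), 1 of 13 for microglia and macrophages (-0.29), 0 of 11 for astrocytes (-0.13), 0 of 10 for oligodendrocytes (-0.17), 0 of 8 for their precursors (-0.19), 1 of 7 for blood (-0.34) and 2 of 8 for ependyma (-0.06). Neurons had 8 of 10 above 0 (0.07). None of these markers passed, and their part in the values of the 9 genes was not tested. This contrast is made from the same libraries as both shock comparisons and the genotype comparison without shock, so its signs are no separate evidence.

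After shock the differences between genotypes had estimates near 0 for most of these genes, with intervals that left room for larger ones. In HT shock against WT shock 9.28% of all genes passed, 3.95% higher and 5.33% lower in HT, and 27.9% had an unadjusted p under 0.05. The number passing, 1589, was 422 without HT shock replicate 1 and 2925 without HT control replicate 6. None of the 9 passed or had an unadjusted p under 0.05 (limma, smallest adjusted p = 0.404). Of the 9, 5 were above 0, against 50.8% of all genes, and their median was 0.01. Lum had the largest difference, 0.25 ± 0.19, with an interval of -0.14 to 0.64, and Igf2 had 0.01 ± 0.11 (-0.21 to 0.23). Col1a2 (-0.09 ± 0.13), Acta2 (-0.03 ± 0.15), Col1a1 (-0.02 ± 0.13) and Pdgfrb (-0.01 ± 0.09) lay just below 0. None of the 9 separated the groups, where 3.75% of all genes lay wholly higher and 4.82% wholly lower. Of the markers of other cells, 7 of 10 for oligodendrocytes and 3 of 11 for astrocytes passed lower (medians -0.27 and -0.18), 1 of 14 for choroid plexus passed lower, and 3 of 10 for neurons passed higher and 1 lower. Above 0 were 3 of 20 for endothelium (median -0.20), 7 of 8 for ependyma (0.14) and 9 of 14 for choroid plexus (0.06). Microglia and macrophages had 8 of 13 (0.04), precursors of oligodendrocytes 3 of 8 (-0.11) and blood 1 of 7 (-0.22). With the 9 genes left out, pericytes had 4 of 14 (-0.19), smooth muscle 4 of 13 (-0.02) and fibroblasts and meninges 19 of 40 (-0.004). Their part in the values of the 9 genes was not tested.

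Taken as the mean over control and shock, HT against WT gave differences above 0 for all 9 genes, with a median of 0.12, against 51.4% of all genes. None passed, while 14% of all genes did, 5.42% higher and 8.62% lower, and 31.3% had an unadjusted p under 0.05. Lum at 0.33 ± 0.13 (limma adjusted p = 0.0854) and Igf2 at 0.19 ± 0.07 (adjusted p = 0.0844) came nearest to the threshold. Without WT shock replicate 4, Igf2 passed at 0.22 ± 0.07 (limma adjusted p = 0.0410), and without HT shock replicate 2, Lum passed at 0.38 ± 0.12 (adjusted p = 0.0488). Without HT control replicate 6 they had 0.16 ± 0.07 and 0.28 ± 0.13 (adjusted p = 0.159 and 0.158). The other differences ran from 0.07 (Pdgfrb and Col1a2) to 0.16 (Acta2). With the 9 genes left out, pericyte genes were above 0 in 6 of 14 (median -0.01) and smooth muscle genes in 10 of 13 (0.05). Fibroblast and meningeal genes were above 0 in 31 of 40 (0.07). Markers above 0 were 8 of 8 for ependyma (median 0.18), 12 of 14 for choroid plexus (0.26), 11 of 13 for microglia and macrophages (0.16), 9 of 20 for endothelium (-0.07, 1 passing higher), 4 of 8 for precursors of oligodendrocytes (-0.01) and 2 of 7 for blood (-0.03). Oligodendrocytes had 0 of 10 above 0 with 6 passing lower (-0.18), astrocytes 2 of 11 with 3 passing lower and 1 higher (-0.12), and neurons 6 of 10 with 3 passing higher and 2 lower (0.03). Their part in the differences of the 9 genes was not tested.

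Shock against control, as the mean over genotypes, gave 5 of the 9 above 0 against 51.7% of all genes, with a median of 0.01. None of them passed (limma, smallest adjusted p = 0.622) and none had an unadjusted p under 0.05, against 0% and 9.08% of all genes. Without HT control replicate 6, Acta2 lay at -0.02 and Col1a2 at 0.01, both on the other side of 0, and still none of the 9 passed (limma, smallest adjusted p = 0.261), while 686 of all genes did. Library weights gave 574 of all genes.

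**Figure D2:**
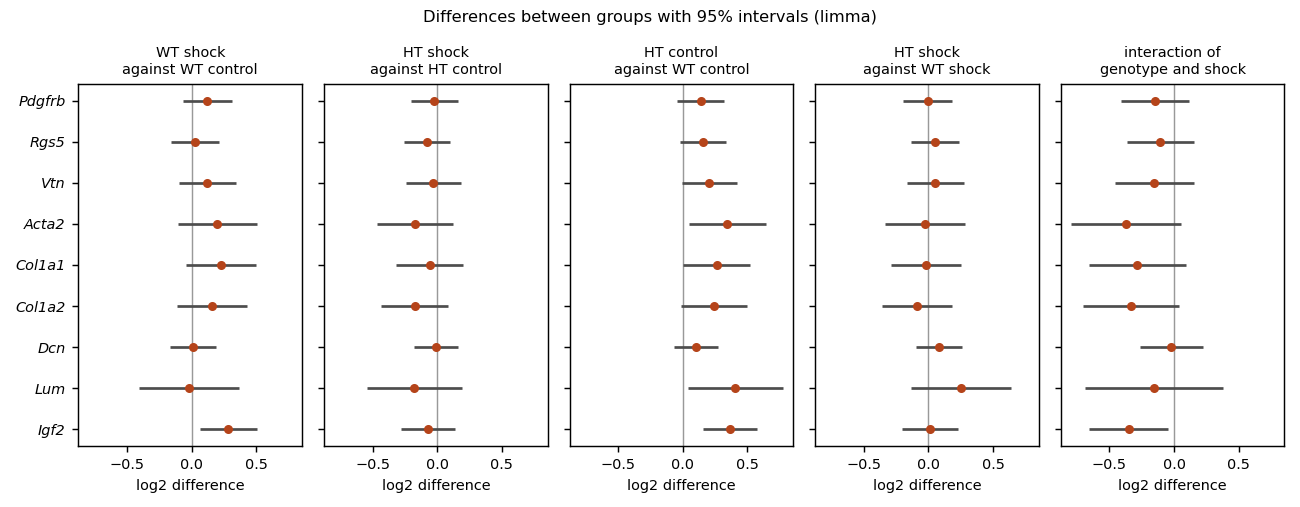
Log2 differences (horizontal axes) of the 9 genes (rows) in 4 pairwise comparisons and the interaction, from limma: points are estimates and lines 95% intervals. In HT control against WT control all 9 points lie above 0 and the intervals of Igf2, Lum, Acta2 and Col1a1 leave out 0 before adjustment, and in HT shock against WT shock all 9 intervals hold 0.

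The genes around these 9 were read from lists of their ligands, partners and neighbours, beside the share of all genes passing in the same contrast. That share was 14% in HT against WT over both conditions and 9.28% in HT shock against WT shock. In the PDGF system, 1 of 7 genes passed in HT against WT over both conditions: Pdgfb, the ligand that endothelial cells send to Pdgfrb, was higher by 0.16 ± 0.05 (limma adjusted p = 0.0269). That call was lost without WT control replicate 4 (0.15, adjusted p = 0.0504) and without WT shock replicate 2 (0.14, adjusted p = 0.0600). Pdgfb had a lowest, median and highest library of 488, 523 and 571 normalized counts in WT control, 465.9, 568.5 and 583 in WT shock, 519, 568.2 and 664 in HT control and 567, 600 and 652 in HT shock. All of these groups overlapped with a group of the other genotype.

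In the IGF system, 1 of 13 genes tested rose and 2 fell in that contrast, where 14% of all genes passed. Igfbp6, a binding protein that prefers IGF2, rose by 0.27 ± 0.06 (limma adjusted p = 0.00632). Igf1r, the receptor that transmits the IGF signal, had -0.16 ± 0.04 (adjusted p = 0.0187), and Insr, the insulin receptor, had -0.18 ± 0.05 (adjusted p = 0.0126). These 3 calls held under all 32 alternatives of the contrast. Igf2r, the receptor that clears IGF2 from the cell surface, had -0.10 ± 0.04 and did not pass (adjusted p = 0.0794). Igfbp6 had libraries from 490 to 594 normalized counts in WT control, 476 to 654 in WT shock, 578 to 785 in HT control and 582 to 802 in HT shock. Insr had 1889 to 2171, 1887 to 2096, 1489 to 2183 and 1600 to 1805 in the same order, and Igf1r 2349 to 2783, 2565 to 2984, 2010 to 2769 and 2117 to 2483. For Insr and for Igf1r, HT shock lay wholly below WT shock, as did 4.82% of all genes. For Insr, HT shock also lay wholly below WT control, a pair for which no share of all genes was computed.

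In HT shock against WT shock 1 of the 13 was higher and 3 were lower, where 9.28% of all genes passed. Igfbp6 had 0.35 ± 0.09 (limma adjusted p = 0.0204), Igf1r -0.25 ± 0.06 (adjusted p = 0.0224) and Insr -0.24 ± 0.07 (adjusted p = 0.0268). Igf2r had -0.18 ± 0.06 (adjusted p = 0.0435) and is named after its values were seen. Each of these calls was lost when certain single libraries were left out. For Igfbp6 they were HT shock replicate 1 and WT shock replicate 1 (0.29 at the lowest, adjusted p up to 0.0568), and for Igf1r HT shock replicates 1, 2 and 3 and WT shock replicate 3 (adjusted p up to 0.0614, at -0.21). For Insr they were HT shock replicates 1, 2 and 3 and WT shock replicates 1, 2 and 3 (adjusted p up to 0.0639, at -0.23). For Igf2r they were HT control replicate 2, HT shock replicates 1, 2, 3 and 4, WT control replicate 5, and WT shock replicates 1, 2, 3 and 5 (adjusted p up to 0.108, at -0.16), and its call was also lost without robust moderation or trend (adjusted p = 0.0608).

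Of the 8 small leucine-rich proteoglycans other than Dcn and Lum that were tested, Podn (podocan) passed in HT against WT over both conditions. It was higher in HT by 0.33 ± 0.09 (limma adjusted p = 0.0163). All 10 of that family, Dcn and Lum included, had differences above 0 in HT control against WT control (median 0.26), and none passed there. Among 45 fibroblast and meningeal genes 1 passed in HT against WT, where 14% of all genes did. It was Col6a1, a chain of type VI collagen, at 0.14 ± 0.04 (limma adjusted p = 0.0232), a call lost without WT shock replicate 3 (0.12, adjusted p = 0.0506). Of the 45, 42 were above 0 in HT control against WT control (median 0.15) and 41 in WT shock against WT control (median 0.12), with none passing in either.

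Of 17 pericyte genes, 1 rose and 1 fell in HT against WT, where 14% of all genes passed. Anpep, an aminopeptidase of the pericyte surface, rose by 0.68 ± 0.17 (limma adjusted p = 0.0126), from a lowest, median and highest library of 60.6, 102 and 143 normalized counts in WT control and 93.0, 106 and 205 in WT shock to 108, 160 and 240 in HT control and 154, 185 and 243 in HT shock. HT shock lay wholly above WT control, a pair that differs in both genotype and shock and for which no share of all genes was computed. HT shock and WT shock overlapped, as did the other groups between genotypes. Ebf1, a transcription factor of mural cells, had -0.23 ± 0.07 (adjusted p = 0.0358). The Ebf1 call was lost without HT control replicates 5 or 6, HT shock replicates 2 or 3, WT control replicates 3 or 6, and WT shock replicates 2 or 5, with differences from -0.23 to -0.18 (adjusted p up to 0.0653), and without robust moderation or trend (adjusted p = 0.0548). With Pdgfrb, Rgs5 and Vtn left out, 11 of 14 pericyte genes were above 0 in HT control against WT control (median 0.09). In WT shock against WT control 12 were above 0 (0.08), in HT shock against HT control 6 (-0.08) and in the interaction 2 (-0.17). For smooth muscle genes other than Acta2 the counts were 10 (0.06), 9 (0.08), 5 (-0.04) and 2 (-0.13) of 13, in the same order. None of the 14 smooth muscle genes tested passed in any of the 7 contrasts.

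Sparc, a matrix protein that binds collagen and stands in the lists of vascular basement membrane and of collagen processing, was the 1 gene to pass in HT against WT among the 13 and 19 genes tested of those lists. It had -0.13 ± 0.02 (limma adjusted p = 0.00194), and -0.18 ± 0.03 in HT shock against WT shock (adjusted p = 0.00452). Ccn2, a matricellular protein induced by TGF-beta, was the 1 of 13 genes of the TGF-beta list to pass, at 0.28 ± 0.05 (adjusted p = 0.00279), and at 0.38 ± 0.08 in HT shock against WT shock (adjusted p = 0.00684). The calls of Sparc and Ccn2 held in both contrasts under every alternative run. Sparc libraries ranged from 15198 to 16411 normalized counts in WT shock and from 13309 to 14715 in HT shock, and those of Ccn2 from 565 to 695 and from 784 to 1007. Neither pair of ranges overlapped, where 3.75% of all genes lay wholly higher in HT shock and 4.82% wholly lower.

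Whether the genes ran together from library to library was asked after subtracting the group means from the log2 values, so that differences between groups play no part. Of the 36 pairs of the 9 genes, 35 had a Pearson's r above 0, with a median of 0.53 over 23 libraries. Over all 146504403 pairs of tested genes the median was -0.001 and 49.8% were above 0. By permutation within groups with Benjamini-Hochberg adjustment over the 36 pairs, 23 pairs passed by r and 18 by Spearman's rho. All values come from the same libraries and share their normalization and composition. Leaving out the 2 libraries farthest from the median of a pair's first gene left 11 pairs, on fewer libraries and a narrower range of that gene. Leaving out 1 library at a time left 16 to 23 pairs, the fewest without HT control replicate 3.

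The fibroblast genes ran together most closely, with a median r of 0.65 and 8 of 10 pairs passing. Col1a2 and Lum had r = 0.77 and rho = 0.80 (permutation, adjusted p = 0.00144 and 0.00369), and r = 0.69 without the 2 farthest libraries. The chains Col1a1 and Col1a2 had r = 0.76 and rho = 0.62 (adjusted p = 0.00171 and 0.0114). Their r was 0.56 without the 2 farthest libraries (adjusted p = 0.0510), so that pair no longer passed there. Col1a2 and Igf2 had r = 0.75 and rho = 0.73 (adjusted p = 0.00144 and 0.00369) and r = 0.63 without the 2 farthest. Dcn, although a proteoglycan like its neighbour Lum, had r = 0.38 and rho = 0.35 with Lum (adjusted p = 0.145 and 0.173) and r = 0.37 and rho = 0.39 with Igf2, neither passing.

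The mural genes formed no such block among themselves: their 6 pairs had a median r of 0.32, and 2 passed by r and 1 by rho. Pdgfrb and Vtn had r = 0.67 and rho = 0.64 (permutation, adjusted p = 0.00644 and 0.0114), and r = 0.81 without the 2 farthest libraries. Pdgfrb and Rgs5, both pericyte markers, had r = 0.59 and rho = 0.52 (adjusted p = 0.0138 and 0.05002), and r = 0.42 without the 2 farthest. Rgs5 and Vtn had r = 0.26 (adjusted p = 0.255). Acta2 passed with none of the other 8 genes, with r from -0.07 (Dcn) to 0.38 (Rgs5).

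Pairs across the 2 kinds reached an r of 0.75, between the highest of the mural pairs (0.67) and of the fibroblast pairs (0.77). Of 20 such pairs, 13 passed by r and 9 by rho, with a median r of 0.51. Rgs5 and Col1a2, whose upstream stretches are printed above, had r = 0.75 and rho = 0.71 (permutation, adjusted p = 0.00144 and 0.00636), and r = 0.66 without the 2 farthest libraries. Pdgfrb and Col1a2 had r = 0.72 and rho = 0.73 (adjusted p = 0.00336 and 0.00636), and Vtn and Lum r = 0.72 and rho = 0.74 (adjusted p = 0.00310 and 0.00369), with 0.63 and 0.69 without the 2 farthest. The difference between the kinds of pairs was not tested.

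**Figure D3:**
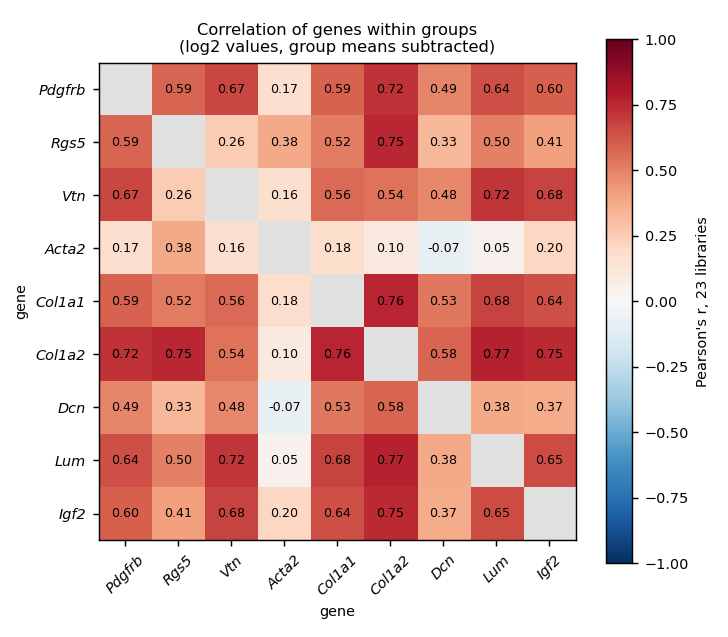
Pearson's r of each pair of the 9 genes (rows and columns) over 23 libraries, with group means subtracted, coloured from -1 (blue) to 1 (red). The row of Acta2 is pale, from -0.07 to 0.38, and the row of Col1a2 holds the strongest values, up to 0.77.

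In several libraries nearly all of the genes were high or low at once. HT shock replicate 6 had the highest mean over the 9 genes, 0.268 above the mean of all libraries on the log2 scale, with all 9 above it, and HT control replicate 6 followed with 0.249 and 8 of 9. WT control replicate 3 was the lowest at -0.400, then HT shock replicate 2 at -0.297, WT control replicate 2 at -0.235 and WT shock replicate 2 at -0.220. In WT control replicate 3, HT shock replicate 2 and WT shock replicate 2 none of the 9 genes exceeded its mean over all libraries. High and low libraries thus occurred in both genotypes and both treatments. Set against their own group means, as in the correlations, libraries ran from -0.322 (HT shock replicate 2) to 0.243 (HT shock replicate 6). Without HT control replicate 6 all 36 pairs kept their side of the threshold, and without HT control replicate 3, at -0.173 from its group, 7 pairs no longer passed. Group means of this measure were -0.133 ± 0.156 (SD, n = 6) in WT control, -0.009 ± 0.157 (n = 5) in WT shock, 0.114 ± 0.1002 (n = 6) in HT control and 0.025 ± 0.200 (n = 6) in HT shock. They are given without a test, since the genes were chosen with results of these data known.

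**Figure D4:**
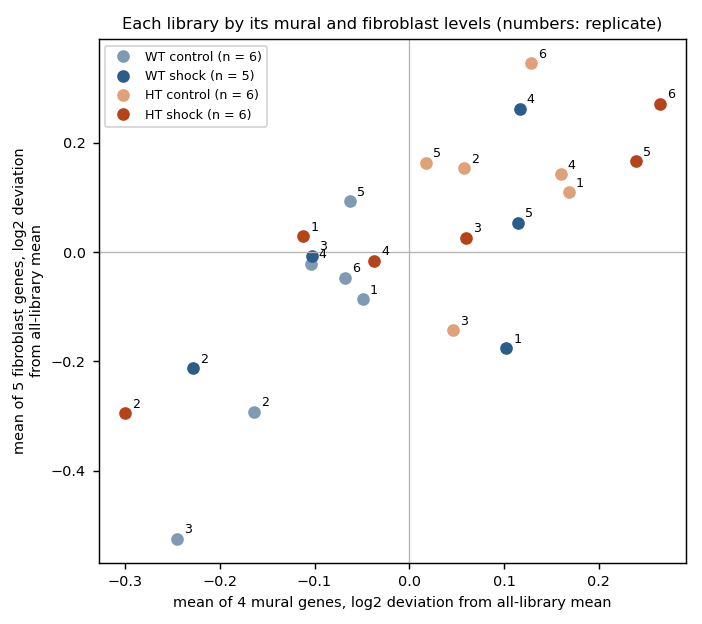
Each library by the mean log2 deviation of the 4 mural genes (horizontal) and of the 5 fibroblast genes (vertical) from the mean of all libraries, with colours for groups and numbers for replicates. Libraries spread along the diagonal from WT control replicate 3 (-0.245 and -0.525) to HT shock replicate 6 (0.264 and 0.271), and all 6 HT control libraries lie above 0 on the mural axis.

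For each gene the 5 genes most like it were taken by Pearson's r over the 23 libraries, group means subtracted, among 12962 genes with a mean of at least 50. Pdgfrb was followed by Slc22a8 (0.88), Notch3 (0.85), the Notch receptor of mural cells, and Atp13a5 (0.82), a pericyte marker. Rgs5 was followed by Itih5 (0.91) and Itm2a (0.84), an endothelial marker. Vtn was followed by Aldh4a1 (0.85) and then by Tmem119 (0.81), a microglial marker, with Cx3cr1 (0.80), the fractalkine receptor of microglia, among its 5. The genes most like Acta2 were Golga4 (0.78) and Kcnn3 (0.77), and none of its 5 stood in a mural list.

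Thbd, which encodes thrombomodulin, headed the order for both collagen chains, with r = 0.89 for Col1a1 and 0.87 for Col1a2. Gjb2, a connexin of meningeal fibroblasts, came next for Col1a1 (0.84), and Fmod, the proteoglycan fibromodulin, for Col1a2 (0.85). Lum was followed by Gpr17 (0.84), a marker of oligodendrocyte precursors, and Igf2 by its binding protein Igfbp2 (0.82). Dcn was followed by Ddx58 (0.78) and Slc39a8 (0.78). The mean of the 4 mural genes was most like Pdgfra (0.94), the other PDGF receptor, which oligodendrocyte precursors and fibroblasts carry, and the mean of the 5 fibroblast genes was most like Thbd (0.93). These are descriptions over 23 libraries with shared normalization, and they carry no test.

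The same measure against the mean of whole marker lists, with the 9 genes left out of them, set the genes apart from one another. Pdgfrb had r = 0.80 with the 14 other pericyte markers, against 0.62 for Rgs5 and for Vtn. Acta2 had 0.79 with the 13 other smooth muscle markers and 0.23 with the 40 other fibroblast and meningeal markers. Col1a2 had 0.86 with those fibroblast markers, Igf2 and Col1a1 0.74, Lum 0.73 and Dcn 0.54. Pdgfrb and Rgs5 had 0.79 and 0.70 with them. Rgs5 reached 0.79 with vascular basement membrane genes and 0.74 with endothelial markers. Vtn had 0.77 with microglia and macrophage markers, and Igf2 0.74. Markers of neurons had negative values with all 9 genes, from -0.74 (Rgs5) to -0.26 (Dcn), and those of blood lay between -0.15 and 0.29. So the mean marker RNA of several non-neuronal cell types rose and fell with these genes from library to library. The part of these marker lists in the correlations among the 9 genes was not tested.

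**Figure D5:**
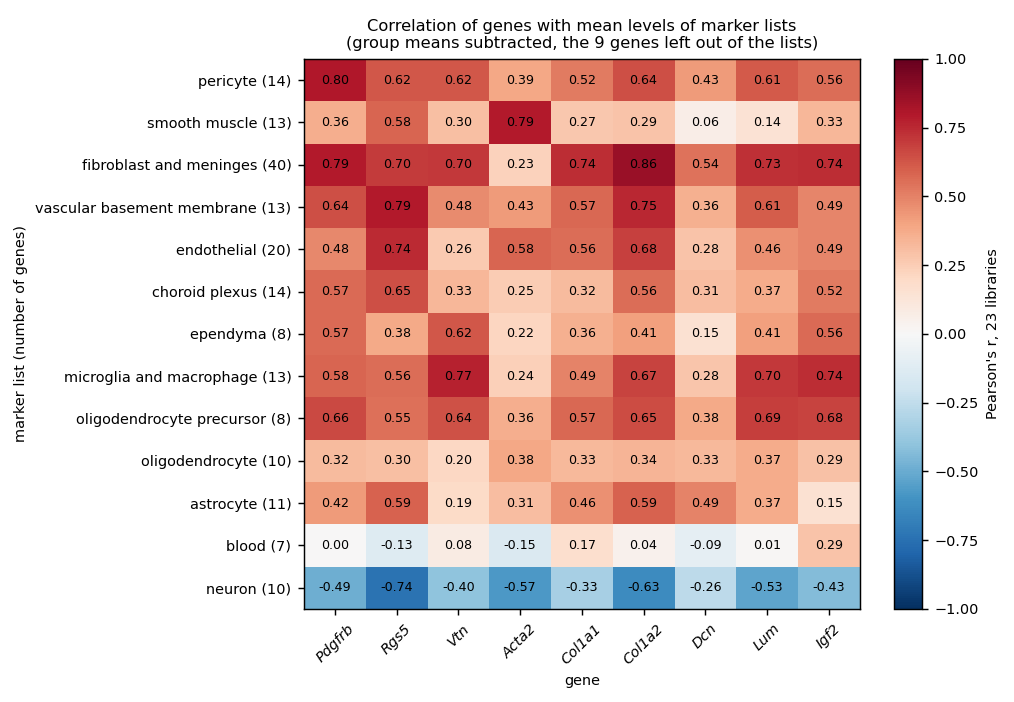
Pearson's r over 23 libraries of each of the 9 genes (columns) with the mean level of marker lists (rows, number of genes in brackets), group means subtracted, coloured from -1 (blue) to 1 (red). The column of Acta2 is highest for smooth muscle (0.79), that of Vtn for microglia and macrophages (0.77), and the neuron row is negative throughout.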

How the data were processed

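Brain RNA of 23 mouse libraries was prepared with a stranded mRNA kit, per the labels' protocols. The deposited signal is a normalized count per gene and library, with decimals, and not a raw count. GRCm38 is the build and Salmon 1.1.0, DESeq2 1.26.0 and R 3.6.2 are tools that appear, without a stated role, per the submitters' processing notes. The table holds 18578 genes, of which 18563 matched a symbol, and 1 of its 24 columns matched no sample and was not used. The unused column is a WT shock library, of the group that has 5 libraries here. Whole reads could not be recovered: of a library's values under 60, at best 22.0% to 43.7% came within 0.1 of whole multiples of a common step. The planned count test was therefore replaced by limma, as the design foresaw.

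Groups came from the titles. Values were taken as log2(normalized count + 1), a scale that understates the change of low genes. The filter kept 17118 genes, those whose mean was 10 or more. Limma 3.58.1 (statmod 1.5.0, R 4.3.3) fitted the 4 groups together, with trend and robust moderation, for 7 contrasts, and Benjamini-Hochberg adjustment ran over all 17118 genes. Correlations between genes used 100000 permutations within groups (Python 3.11.15, numpy 2.4.6, pandas 2.3.3). The fits were also run on simulated data with independent noise for each gene. The outcome of that run is not reported here. In each group of 5 or 6 libraries the extreme value of each gene was checked with Dixon's ratio, which marked 0 of 36.

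The 9 genes and all lists were chosen with earlier results of these data known. The text names the 9 genes in every comparison, up to 3 genes of a list by the smallest p, and the 5 genes most like each. Alternatives were the scaling, the filter, the pseudocount, the libraries in the fit, replicate blocks, library weights, moderation, and leaving out each library in turn. Lists of pericyte, smooth muscle, fibroblast, endothelial, choroid plexus, ependymal, blood, microglial, astrocyte, oligodendrocyte, precursor and neuronal markers were read, with lists of the PDGF, IGF, TGF-beta, proteoglycan, basement membrane and collagen processing genes.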

Additional observations from a re-analysis of the deposited data

How the results depend on the processing

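None of the 9 genes passed in any of the 7 contrasts (63 tests), and 5 of 2052 tests under 33 alternative settings passed, all in HT against WT over both conditions. Whether libraries with the same number pair was not settled. The correlations of their deviations ran from -0.15 to 0.19 by title number, with 5 of 33 above 0.1. Of the 23 libraries, 8 correlated best with 1 of their own number (2 of 23 by the library-name number). The count to be had without pairing was not computed. With a replicate block by title number 1 of the 9 passed there (Igf2, 0.17, limma adjusted p = 0.0464), and by library-name number 2 passed (Lum, 0.36, adjusted p = 0.0355, and Igf2, 0.20, adjusted p = 0.0144). The block by title number also ended the calls of Pdgfb (0.15, adjusted p = 0.0551) and Ebf1 (-0.22, adjusted p = 0.0749) there and, in HT shock against WT shock, of Igfbp6 (0.33, adjusted p = 0.0516), Igf1r (-0.25, adjusted p = 0.0587), Insr (-0.23, adjusted p = 0.0692) and Igf2r (-0.17, adjusted p = 0.0985). By library-name number it ended those of Ebf1 (adjusted p = 0.0632), Insr (adjusted p = 0.0510) and Igf2r (adjusted p = 0.0673), all by limma. Leaving out each library in turn gave 0 to 1 in HT against WT, and 0 in the other contrasts.

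All 9 stayed above 0 under every alternative in HT control against WT control and in HT against WT. The number above 0 ran from 6 to 9 in WT shock against WT control, 0 to 5 in HT shock against HT control, 3 to 8 in HT shock against WT shock, 4 to 8 for shock over both genotypes, and 0 to 1 for the interaction.

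The count of all genes passing moved more. In HT shock against WT shock (1589 genes) it was 450 and 976 with the blocks, 3775 with library weights, 1011 without robust moderation or trend, 2930 with only those groups, and 422 to 2925 leaving out 1 library. In HT shock against HT control (0) it was 2064 without HT control replicate 6 and 2792 with weights. In HT against WT (2404) it was 1505 with the block by title number, and for shock over both genotypes (0) 686 without that library and 574 with weights. Of the 36 pairs, 23 passed, 11 without the 2 farthest libraries. The causes were not tested. Unknown depth leaves the counting error of Lum, the lowest gene, without a bound.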
